A study of Apera spica-venti with 7 samples.

Results

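Proteases that break down seed reserves and turn over proteins were followed through de novo transcriptome assemblies of the grass weed Apera spica-venti. A transcript, that is a translated peptide of an assembled contig with 1 best homologue in UniProtKB, was a member where the e-value of the match was at most 0.1 and the name of the homologue held cathepsin, carboxypeptidase, cysteine proteinase, cysteine protease, vacuolar-processing, subtilisin, aspartic proteinase, aspartic protease, oryzain, aleurain or aminopeptidase, and not inhibitor. In the 7 single assemblies 455 of 251792 annotated transcripts were members (0.181%), and they matched 119 proteins under 39 names. In the combined assembly of the merged reads there were 159 members of 66641, which matched 85 proteins under 31 names. Germinated seeds at stages BBCH 05, 07, 08 and 09, from the radicle leaving the seed to the coleoptile breaking through the surface, and leaf, root and stem of plants in stem elongation at BBCH 34 to 36 were sequenced, all from a mixture of Danish populations susceptible to herbicides. No treatment was given to any group. RNA of several individuals was pooled for each condition, and the series holds 1 sample per condition, with no replicate; further libraries of leaf and root that the study's methods mention were not analysed here as samples of their own. The tables hold the assembled transcripts and no expression levels, and every value below counts transcripts or proteins that were recovered.

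In germinating grass seeds, endopeptidases secreted by the aleurone layer and the scutellum cut the storage proteins of the endosperm into peptides, and carboxypeptidases and aminopeptidases then release amino acids for the seedling from the ends of those peptides. Papain-like cysteine proteases, which carry a cysteine in the active site, hold a large part of this endopeptidase activity in barley. The same enzyme families work in leaf, root and stem, in the vacuole and the cell wall, where they recycle proteins, mature other enzymes and take part in senescence and defence.

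GO terms and enzyme codes of the members were mapped from the homologues that also gave the names. Agreement between them is therefore no independent check of the names. The GO term proteolysis was on 408 of the 455 transcripts (89.7%), and an enzyme code of the peptidases on 358. Serine-type carboxypeptidase activity was on 200 of 214 serine carboxypeptidases (93.5%), serine-type endopeptidase activity on 103 of 121 subtilisin-like proteases (85.1%), and a cysteine-type activity on 53 of 63 papain-like proteases (84.1%). A GO name with the words bone mineral was on 138 of the 455 members. The median mean similarity of the members to their homologues was 89%, against 86% over all annotated transcripts, and 447 members (98.2%) had an e-value of at most 1e-10. The members just inside the e-value limit reached 0.071, and the 21 transcripts with the same words beyond the limit started at 0.17. The members came from 431 contigs, of which 24 gave 2 or more member peptides, so that a peptide is not always a contig of its own. Aegilops tauschii (AEGTA) was the source of the best homologue for 30.1% of members and Triticum urartu (TRIUA) for 28.8%, against 14.5% and 12.1% of all annotated transcripts. Barley (HORVD) was the source for 3.52% of members, against 13.0% of all. Uninformative names, which cannot match the rule, were on 71.9% (root) to 74.3% (stem) of the annotated transcripts of each single assembly. Their part in this contrast between source species was not tested. Of the 4793 annotated transcripts with the GO term proteolysis in the single assemblies, 408 were members. At BBCH 05, 418 of 677 such transcripts had uninformative names. Member counts are therefore not counts of all proteases.

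The names were deposited with letters missing. The word proteinase stood in 0 of the annotated names, and names such as "Cysteine ase EP-B 1" and "Aspartic ase nepenthesin-1" stood in the places where UniProt writes cysteine proteinase and aspartic proteinase. The rule therefore found no aspartic proteinase and no vacuolar-processing enzyme, and it missed 155 transcripts of the 7 assemblies that carry those shortened names or the words vacuolar processing enzyme written without a hyphen. These 155 transcripts are described after the members and are in none of the counts of members. Aleurain, oryzain gamma, EP-A, RD19, SAG39, SBT, xylem cysteine proteinase, ATG4 under that name and serine carboxypeptidase 2 were found in 0 descriptions of any assembly, and serine carboxypeptidase 3 was on 1 transcript of the combined assembly alone. The words autophagy 4 were on 1 transcript each at BBCH 07, at BBCH 09, in leaf and in root, and the rule does not take them in. A missing name says only that no best match carried it.

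The labels of the tissues were checked with marker words. Chlorophyll a-b binding proteins, photosystem proteins and ribulose bisphosphate carboxylase were on 52 transcripts in leaf and on 31 to 38 in the other 6 assemblies. The words for germinating seed were on 27 to 41 transcripts in the seed stages, on 24 in root, on 13 in leaf and on 7 in stem. Oleosin, alpha-amylase and globulin were on more in each seed stage than in each organ. Malate synthase was on 3, 2, 3 and 3 in seeds and on 0, 2 and 0 in leaf, root and stem, so BBCH 07 and root were equal. Late embryogenesis abundant was on 2, 1, 2 and 1 in seeds and on 3, 3 and 0 in leaf, root and stem. Isocitrate lyase was on 1, 4, 4 and 1 in seeds and on 1 in each organ, and glutelin on 0. All of these are counts and not shares. The root words were on 8 transcripts in root, 8 at BBCH 09 and 2 to 6 in the other 5 assemblies. Of these, nicotianamine synthase and the high-affinity nitrate transporter were on 1 transcript each, both in root, and Casparian strip proteins, which define the root endodermis, were on 0 in every assembly. The words for elongating stem (cellulose synthase, laccase and fasciclin) went against the label, with 37 transcripts in stem, the lowest of the 7, and 63 in root, the highest. Homologues from green algae were on 532 transcripts at BBCH 09 and 418 in root, and on 40 to 123 in the other 5 assemblies.

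The members made up a similar share of every assembly. There were 53 members at BBCH 05, 79 at BBCH 07, 78 at BBCH 08 and 84 at BBCH 09, and 47 in leaf, 66 in root and 48 in stem. Per 10000 annotated transcripts these were 14.6, 19.8, 20.4 and 20.5 in the seed stages and 16.5, 17.0 and 16.4 in leaf, root and stem. BBCH 05 had the lowest share of all 7 assemblies, and the 3 later seed stages the highest 3. The 95% Wilson intervals, which cover counting error only, ran from 11.2 to 19.1 at BBCH 05 and from 16.6 to 25.4 at BBCH 09, and overlapped. The ratio of BBCH 09 to BBCH 05 was 1.41, with an exact 95% interval of 0.985 to 2.02. The mean share of the seed stages was 18.8 (SD 2.84, 4 stages) and that of the organs 16.7 (SD 0.307, 3 organs), a difference of 2.17 that was smaller than the SD among the seed stages. Without BBCH 05 the seed stages ran from 19.8 to 20.5 and lay above the organs, which ran from 16.4 to 17.0, and the difference was 3.58. With any other assembly left out in its place the ranges overlapped.

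**Figure D1:**
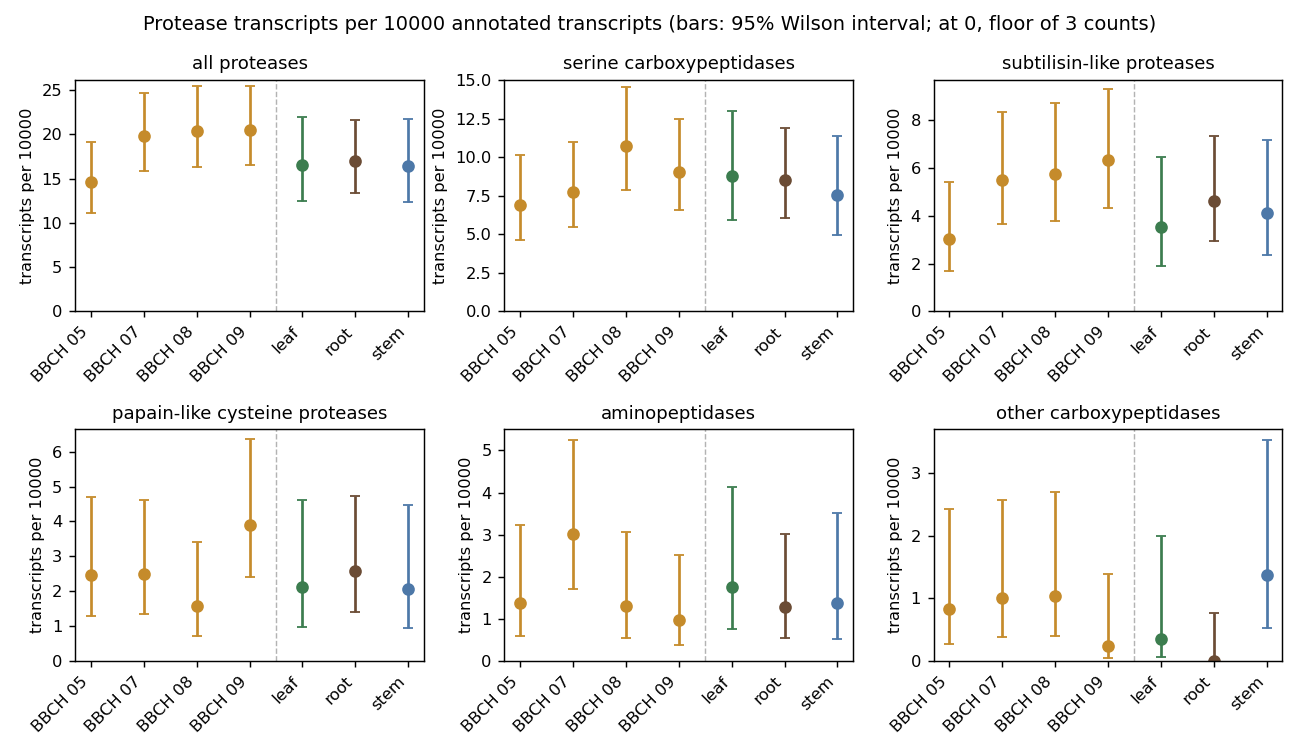
Member transcripts per 10000 annotated transcripts (y axes, starting at 0) in each of the 7 assemblies (x axes) for all members and for 5 classes. Points are 1 assembly each and bars are 95% Wilson intervals for counting error (for the share of 0 in root, the bar ends at a floor of 3 counts), with seed stages to the left of the dashed line. The interval at BBCH 05 for all members, 11.2 to 19.1, overlaps those of every other assembly.

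Among the endopeptidases, the papain-like cysteine proteases gave 63 transcripts of 16 proteins. They numbered 9, 10, 6 and 16 from BBCH 05 to BBCH 09, and 6 in leaf, 10 in root and 6 in stem. Per 10000 transcripts the seed stages ran from 1.57 to 3.91 and the organs from 2.05 to 2.58. BBCH 08 was the lowest and BBCH 09 the highest of the 7 assemblies, with a ratio between these stages of 2.49 and an exact 95% interval of 0.926 to 7.78, and the seed stages and organs overlapped.

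Oryzain beta chain, a homologue of a papain-like protease first described from rice seeds, was on 1, 3, 2 and 3 transcripts from BBCH 05 to BBCH 09 and on 1 each in leaf, root and stem. All 12 transcripts matched the same protein (G9C334). The mean share was 0.571 per 10000 in the seed stages and 0.317 in the organs, and BBCH 05 lay among the organs (exact permutation over 35 splits of the assemblies, two-sided, p = 0.171, adjusted p = 0.461 over 2552 names). Oryzain alpha chain, its relative, was on 1, 2, 1 and 2 transcripts in the seed stages, on 1 each in leaf and stem and on 0 in root. The counts of both oryzains were at most 3 in any assembly, too few to tell the assemblies apart.

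Descriptions that read only "cysteine protease" were on 4, 2, 2 and 3 transcripts in the seed stages and on 3, 3 and 4 in leaf, root and stem. The mean share was 0.715 per 10000 in seeds and 1.07 in organs (exact permutation p = 0.171, adjusted p = 0.461). Of these 21 transcripts, 16 matched the wheat protein Q5MB22, which was found in all 7 assemblies and was the papain-like protein with the most transcripts. Without BBCH 05 this name was lower in every remaining seed stage than in every organ. The share of all names with that pattern was not computed without BBCH 05.

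Cathepsins, named after lysosomal proteases of animals, were on 12 transcripts, of which 9 were cathepsin B, an enzyme with both endopeptidase and carboxypeptidase activity. They numbered 2, 2, 0 and 6 from BBCH 05 to BBCH 09, and 1 in leaf, 1 in root and 0 in stem. BBCH 09 thus held 6 of the 12. The cathepsin Z there and the cathepsin X at BBCH 07 and BBCH 09 had green-algal best homologues, and the larger number of green-algal homologues at BBCH 09 stands beside this count. Its part in it was not tested.

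"Cysteine protease 1" was chosen after its values were seen, since its 6 transcripts were under the limit of 7 for a test. It was on 5 transcripts in root, on 1 at BBCH 09 and on 0 in the other 5 assemblies, and all matched 1 protein (D0ES61). The ratio of root to BBCH 09 was 5.27 with an exact 95% interval of 0.590 to 249. The root peptides were 125, 145, 215, 312 and 351 amino acids long and had mean similarities of 60% to 73%, and that at BBCH 09 had 139 amino acids and 56%, all under the median of 89% of the members. Root and BBCH 09 are also the assemblies with the most green-algal homologues, and the part of other organisms in this count was not tested. The remaining papain-like names had 1 or 2 transcripts each, and the single OTU-like cysteine protease at BBCH 08 belongs by its name to the deubiquitinases and not to the papain family.

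Subtilisin-like proteases, secreted serine endopeptidases of which several act in the cell wall, gave 121 transcripts of 26 proteins. They numbered 11, 22, 22 and 26 from BBCH 05 to BBCH 09, against 10 in leaf, 18 in root and 12 in stem. The shares were 3.03, 5.51, 5.75 and 6.36 per 10000 in the seed stages and 3.52, 4.64 and 4.11 in leaf, root and stem. BBCH 05 had the lowest share of all assemblies and the other 3 seed stages the highest. The difference of the means was 1.08 per 10000 and without BBCH 05 it was 1.79, with the seed stages from 5.51 to 6.36 above the organs from 3.52 to 4.64. That stage was the lowest, and with any other assembly left out in its place the ranges overlapped.

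The name "subtilisin-like protease" itself was on 10, 19, 20 and 25 transcripts in the seed stages and on 9, 15 and 11 in leaf, root and stem. The mean shares of 4.71 in seeds and 3.60 in organs were not told apart (exact permutation p = 0.286, adjusted p = 0.617). Between BBCH 09 and BBCH 05 the ratio of shares was 2.22, with an exact 95% interval of 1.03 to 5.17, and 2.15 with 0.5 added to both counts. The interval covers counting error only and takes transcripts that match the same protein as independent. Counted as distinct proteins, 0 member names were at least 2-fold higher at BBCH 09. SDD1, which limits the number of stomata in Arabidopsis, was on 1, 3, 2 and 1 transcripts in the seed stages and on 1, 3 and 1 in leaf, root and stem. Its mean share was 0.449 per 10000 in seeds and 0.489 in organs, with overlap.

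The subtilisin-like protein with the most transcripts of all members was M7YM99, with 3, 4, 4 and 4 transcripts in the seed stages and 1, 2 and 1 in leaf, root and stem. The longest member of the single assemblies, a subtilisin-like peptide of 924 amino acids at BBCH 09, matched M8C5S0. This protein was on 1 transcript in each assembly. Its peptides had 917, 852, 894 and 924 amino acids in the seed stages and 114, 426 and 426 in leaf, root and stem, so that every peptide from seeds was more than 400 amino acids longer than any from an organ.

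Among the exopeptidases, serine carboxypeptidases, which remove single amino acids from the C-terminal end, were the largest class with 214 transcripts (47.0% of members) of 55 proteins. There were 25, 31, 41 and 37 from BBCH 05 to BBCH 09, and 25 in leaf, 33 in root and 22 in stem. The shares were 6.89, 7.76, 10.7 and 9.05 per 10000 in seeds and 8.80, 8.50 and 7.53 in leaf, root and stem. The seed stages thus lay on both sides of the organs, with means of 8.61 and 8.28. The highest stage, BBCH 08, and the lowest, BBCH 05, had a ratio of 1.56 with an exact 95% interval of 0.924 to 2.67. Most of the class, 149 transcripts of 36 proteins, was named only "carboxypeptidase", with 18, 23, 29 and 25 in seeds and 18, 20 and 16 in leaf, root and stem (mean shares 6.10 and 5.65 per 10000, exact permutation p = 0.6, adjusted p = 0.841).

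Serine carboxypeptidase-like 19, whose namesake in Arabidopsis is an acyltransferase that makes sinapoylcholine in seeds, was the one tested member name with every seed stage above every organ. It was on 2, 3, 3 and 4 transcripts from BBCH 05 to BBCH 09 and on 1, 2 and 1 in leaf, root and stem. The shares were 0.551, 0.751, 0.785 and 0.978 per 10000 in seeds and 0.352, 0.515 and 0.342 in organs. BBCH 05 and root both had 2 transcripts, so that their order came from the size of the assemblies alone. The difference of the means of 0.363 gave p = 0.0571 by the exact permutation test and an adjusted p of 0.298. Counted as distinct proteins in place of transcripts, the name no longer stood apart.

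Over the 12 member names with at least 7 transcripts, 1 was higher in seeds without overlap, a share of 8.33% against 5.25% of all 2552 names tested, and 0 were lower, against 6.62% of all. No member name reached an unadjusted p under 0.05 by the exact permutation test, whose smallest possible p with 4 and 3 assemblies is 0.0286 (8.15% of all names reached it), and 0 of 2552 names had an adjusted p under 0.05. The mean share was higher in seeds for 10 of the 12 member names, against 46.9% of all names. The median difference between seeds and organs was 0.156 per 10000 for the member names and -0.028 for all names. The 12 names share their 7 libraries, and the medians describe them only.

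**Figure D2:**
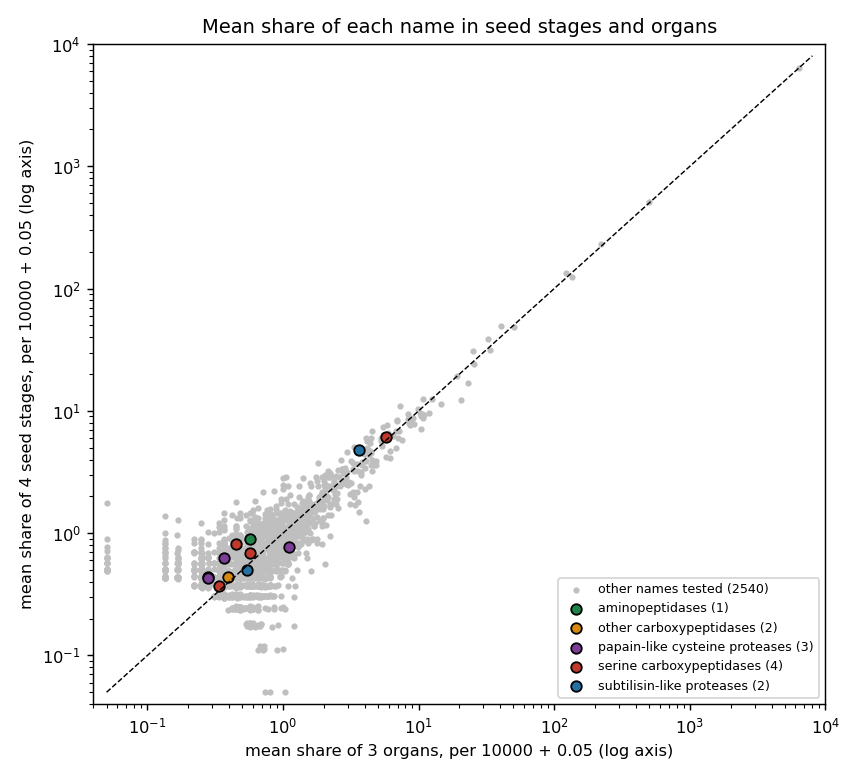
Mean share of the 4 seed stages (y axis) against that of the 3 organs (x axis), per 10000 annotated transcripts with 0.05 added, on log axes, for the 2552 names tested. Each point is 1 name, coloured points are the 12 member names by class, grey points are the others, and the dashed line marks equal shares. Of the coloured points, 10 lie above the line.

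Other names of the class were smaller. Serine carboxypeptidase-like 51 was on 2, 3, 2 and 3 transcripts in seeds and on 2, 2 and 1 in leaf, root and stem. Its peptides were long, with a median of 457 amino acids over 15 transcripts. Serine carboxypeptidase-like 17 was on 1, 0, 2 and 2 in seeds and on 0, 2 and 1 in leaf, root and stem. Serine carboxypeptidase 1 was on 2 transcripts in root and 1 in stem, and the acyltransferase SCPL1, whose namesake in oat adds an acyl group to defence compounds and is no peptidase, on 1 each at BBCH 09, in leaf and in root. The longest serine carboxypeptidase, of 548 amino acids, matched the barley protein F2DAU7, and the one with the most transcripts was the rice protein Q9FYP7 with 15.

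Other carboxypeptidases gave 17 transcripts. Lysosomal Pro-X carboxypeptidase, which in mammals cuts after proline, was on 2, 2, 1 and 1 transcripts in the seed stages and on 1, 0 and 2 in leaf, root and stem. M7Z585, one of its homologues, gave the longest peptide of this class with 436 amino acids at BBCH 07. Glutamate carboxypeptidase 2, the mammalian namesake of which releases glutamate from folates and peptides, was on 1, 2, 3 and 0 in the seed stages and on 0, 0 and 2 in leaf, root and stem. Root had 0 transcripts of the class, which at a floor of 3 counts allows a share of up to 0.773 per 10000.

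Aminopeptidases, which act from the N-terminal end, gave 40 transcripts of 15 proteins. There were 5, 12, 5 and 4 from BBCH 05 to BBCH 09, and 5, 5 and 4 in leaf, root and stem. BBCH 07 was the highest with 3.01 per 10000, against 0.978 to 1.76 in the other 6 assemblies, and the ratio of BBCH 07 to BBCH 09 was 3.07 with an exact 95% interval of 0.931 to 13.1. Methionine aminopeptidase 2, which removes the first methionine of new proteins and so belongs to protein synthesis more than to reserve breakdown, made up 18 of the 40. It was on 3, 5, 3 and 2 transcripts in seeds and on 1, 2 and 2 in leaf, root and stem (mean shares 0.838 and 0.517 per 10000, exact permutation p = 0.171, adjusted p = 0.461). In root, 1 of its transcripts and 1 cytosol aminopeptidase fragment had green-algal best homologues. Without green-algal homologues the class ran from 0.991 to 3.01 per 10000 in seeds and from 0.781 to 1.76 in organs.

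Puromycin-sensitive aminopeptidase was on 1 transcript each at BBCH 05, BBCH 07, BBCH 08 and in leaf, and gave the longest aminopeptidase, of 605 amino acids, at BBCH 08. Aminopeptidase N was on 1 transcript in 5 assemblies, always of 171 amino acids. Aspartyl aminopeptidase was on 3 transcripts, leucine aminopeptidase on 2 and Xaa-Pro aminopeptidase on 2. With so few transcripts no order between stages and organs can be read for them.

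**Figure D3:**
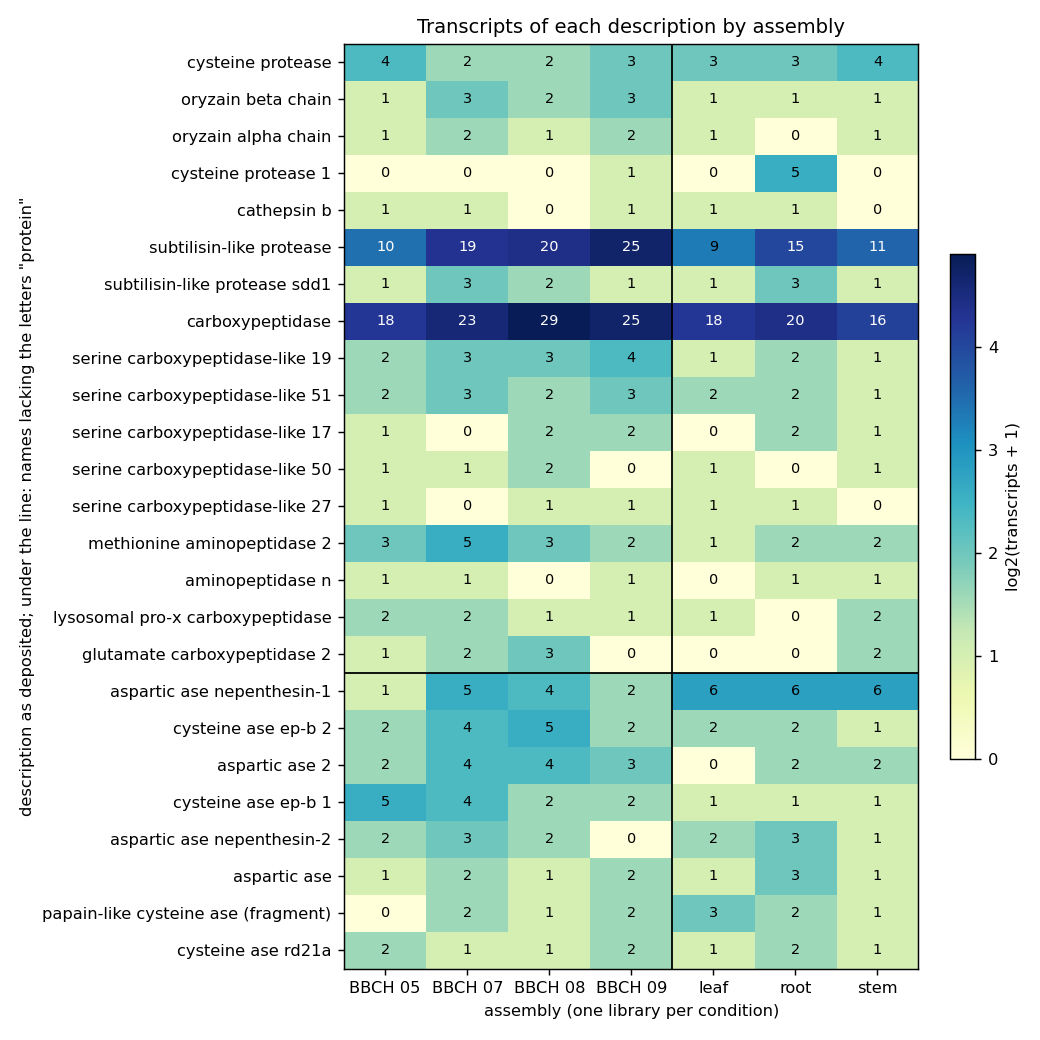
Number of transcripts (printed in each cell, colour as log2 of the number plus 1) for each description with at least 5 member transcripts (above the horizontal line) and for the shortened names with at least 10 (under the line), in the 7 assemblies, with seed stages to the left of the vertical line. Carboxypeptidase and subtilisin-like protease hold most transcripts, and cysteine protease 1 stands at 5 in root and at 0 or 1 elsewhere.

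Within germination, BBCH 09 was set against BBCH 05, with 1 library each and no test. Of the 12 member names, subtilisin-like protease and oryzain beta chain were at least 2-fold higher at BBCH 09 (16.7%, against 10.4% of all 2552 names), and glutamate carboxypeptidase 2 at least 2-fold lower (8.33%, against 7.01%). For oryzain beta chain these were 3 and 1 transcripts and for glutamate carboxypeptidase 2 they were 0 and 1, so no fold is given. The median log2 ratio was 0.30 for the member names and -0.17 for all names. Between root and leaf, serine carboxypeptidase-like 17 passed the same limit upward with 2 and 0 transcripts (8.33%, against 16.5% of all names), and Pro-X carboxypeptidase and oryzain alpha chain downward with 0 and 1 transcript each (16.7%, against 16.4%). The shares of member names past these limits were near those of all names, and nothing particular to proteases is read from them.

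At the level of single proteins, 13 of the 119 were matched in all 7 assemblies (10.9%, against 15.8% of all 57115 proteins) and 44 in 1 assembly only (37.0%, against 34.6%). The carboxypeptidase M8BLA2 was the single protein in all 4 seed stages and no organ (0.84%, against 1.34%). It was on 1, 2, 1 and 2 transcripts, of at most 283, 308, 503 and 309 amino acids from BBCH 05 to BBCH 09, and the pairs at BBCH 07 and BBCH 09 were 2 peptides of 1 contig. The protein M8CD93 was the single one in all 3 organs and no seed stage (0.84%, against 0.564%), with peptides of 132 amino acids in leaf and 115 in root and stem and a mean similarity of 80%. Proteins found only at BBCH 09 numbered 12 (10.1%, against 6.39% of all) and only at BBCH 05 there was 1 (0.84%, against 4.26%). At BBCH 07 alone there were 4 (3.36%, against 5.57%), at BBCH 08 alone 8 (6.72%, against 4.74%), in leaf alone 7 (5.88%, against 3.93%), in root alone 8 (6.72%, against 6.80%) and in stem alone 4 (3.36%, against 2.87%). The 13 transcripts found only at BBCH 09 had a median similarity of 64%, and the 8 found only in leaf one of 96.5%. Of the 119 proteins, 74 were also matched in the combined assembly, and 45 were in single assemblies only. A further 11 proteins, outside the 119, were matched by members in the combined assembly alone.

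Number of transcripts and length of peptides differed together for several of the 13 proteins matched everywhere. The longest peptide was larger in each organ than in each seed stage for 3 of the 13 (23.1%, against 6.98% of all 9028 proteins matched in every assembly), and smaller for 1, the subtilisin-like M8C5S0 (7.69%, against 2.80%). For the oryzain beta protein G9C334 the longest peptides were 175, 259, 249 and 427 amino acids from BBCH 05 to BBCH 09 and 499, 501 and 501 in leaf, root and stem. Each organ thus gave a single long transcript of this protease, and BBCH 07, 08 and 09 gave several shorter ones.

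For the carboxypeptidase M0Z1Z3 the longest peptides were 304, 312, 228 and 203 amino acids in the seed stages and 534, 533 and 543 in leaf, root and stem. Methionine aminopeptidase 2 (B9GEE4) had 258, 109, 458 and 438 in seeds and 459 in each organ. The longest peptides of these proteins were longer in the organs, for methionine aminopeptidase 2 with only 459 against 458 at BBCH 08. These proteins also had a higher mean number of transcripts in the seed stages, with single stages at the same number as organs. Over the 13 proteins, 10 had a larger median longest peptide in the organs (76.9%, against 52.5% of all proteins matched everywhere) and 8 a higher mean number of transcripts in the seed stages (61.5%, against 44.5%). The median peptide of all annotated transcripts had 200, 175, 183 and 188 amino acids in the seed stages and 194, 201 and 232 in leaf, root and stem, and the part of assembly continuity in the counts of transcripts was not tested.

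**Figure D4:**
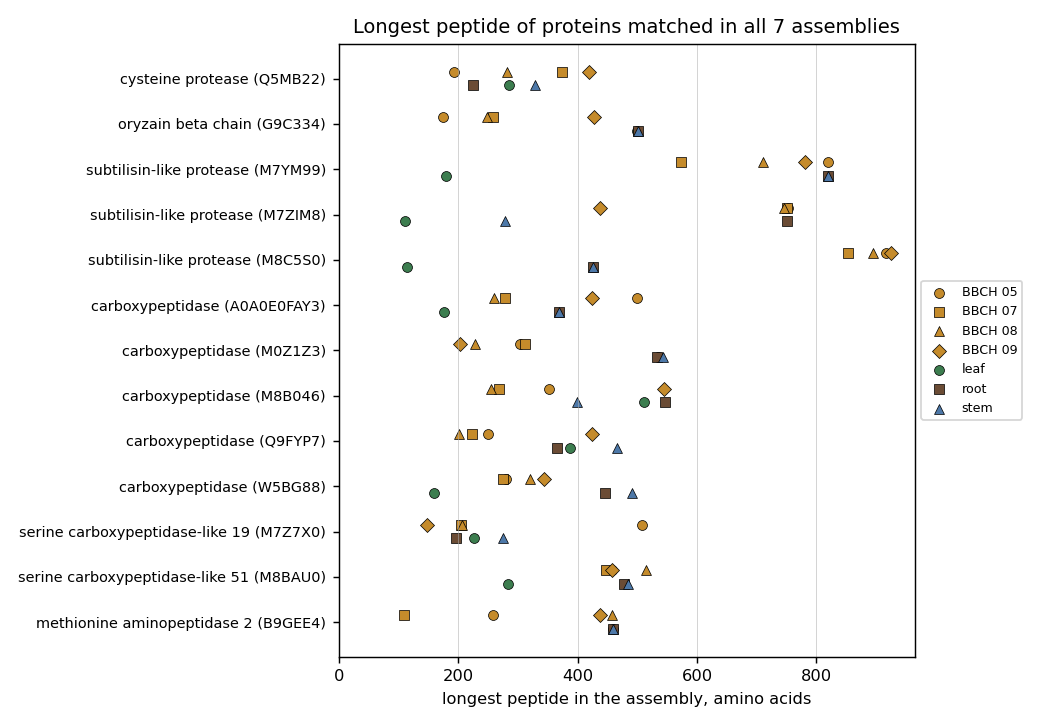
Longest peptide in amino acids (x axis, from 0) of each of the 13 proteins matched in all 7 assemblies (y axis, name and UniProt accession). Each mark is 1 assembly, ochre for the 4 seed stages and green, brown and blue for leaf, root and stem. Oryzain beta chain, carboxypeptidase M0Z1Z3 and methionine aminopeptidase 2 have all organ marks to the right of the seed marks, and subtilisin-like M8C5S0 has them to the left.

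Among peptides of at least 200 amino acids the shares of members in seeds and in organs did not overlap. There were 31, 39, 33 and 39 such members in the seed stages and 18, 30 and 27 in leaf, root and stem, which were 17.1, 23.0, 19.0 and 20.3 per 10000 annotated peptides of that length in seeds and 13.1, 15.3 and 16.05 in organs. Every seed stage lay above every organ, and the difference of the means was 5.05. The serine carboxypeptidases of that length ran from 9.39 to 12.4 in seeds and from 7.25 to 8.32 in organs. The other classes overlapped at that length, the papain-like proteases with means of 2.51 in seeds and 3.00 in organs, the subtilisin-like proteases with 4.44 and 2.82 and the aminopeptidases with 1.13 and 0.610. From 400 amino acids on, with 87 members, seeds and organs overlapped again, with means of 19.2 and 18.5. Under the other settings of e-value, redundancy, denominator, homologue species and rule that were run with all 7 assemblies, the ranges of seeds and organs overlapped for all proteases and for every class.

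The 155 transcripts with shortened names were 20, 27, 25 and 21 in the seed stages and 19, 26 and 17 in leaf, root and stem. They were chosen after the files were seen. Of 9 shortened names tested, 1 was higher in seeds without overlap (EP-B 1) and 2 were lower (nepenthesin-1 and cysteine ase 1), beside 5.25% and 6.62% of all names. EP-B 1 and EP-B 2, homologues of the barley cysteine endopeptidases that the aleurone secretes to digest hordein, were on 34 of them. EP-B 1 (protein M8CWN9) was on 5, 4, 2 and 2 transcripts from BBCH 05 to BBCH 09 and on 1 each in leaf, root and stem. The shares were 1.38, 1.00, 0.523 and 0.489 per 10000 in seeds and 0.352, 0.258 and 0.342 in organs. Every seed stage stood above every organ, and the difference of the means of 0.531 gave p = 0.0857 by the exact permutation test and an adjusted p of 0.298. The longest EP-B 1 peptides had 322, 565, 416 and 533 amino acids in the seed stages and 824, 517 and 517 in leaf, root and stem. EP-B 2 (N1QWH9) was on 2, 4, 5 and 2 transcripts in seeds and on 2, 2 and 1 in organs, which overlapped.

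RD21a, a vacuolar cysteine protease known from drought-stressed Arabidopsis, was on 2, 1, 1 and 2 transcripts in seeds and on 1, 2 and 1 in organs. Aspartic proteinases, which have aspartates in the active site and work at acid pH, gave 83 transcripts with 9, 14, 15 and 10 in the seed stages and 10, 14 and 11 in organs. Nepenthesin-1, named after a digestive enzyme of pitcher plants, was on 1, 5, 4 and 2 of these in seeds and on 6 each in leaf, root and stem. Its shares were 0.276, 1.25, 1.05 and 0.489 per 10000 in seeds and 2.11, 1.55 and 2.05 in organs, all seed stages lying under all organs. The exact permutation p was 0.0286, the smallest possible, and the adjusted p 0.298. "Aspartic ase 2" lay the other way, on 2, 4, 4 and 3 transcripts in seeds and on 0, 2 and 2 in leaf, root and stem, with mean shares of 0.833 and 0.400 per 10000 (exact permutation p = 0.114, adjusted p = 0.363). "Cysteine ase 1" was on 1 transcript in every assembly but root, which had 2, so that its shares in seeds were under those in leaf and stem through the size of the assemblies alone.

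Oryzasin, an aspartic proteinase of rice seeds, was on 1 transcript, at BBCH 09. Vacuolar processing enzyme, which cuts storage proteins to their mature form and activates other vacuolar proteases, was on 1 transcript in leaf and 1 in stem and on 0 in every seed stage, which at a floor of 3 counts allows a share of up to 0.827 per 10000 at BBCH 05. With the shortened names counted in, the share of all proteases was 20.1, 26.5, 26.9 and 25.7 per 10000 in seeds and 23.2, 23.7 and 22.2 in organs, with overlap as before.

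The other genes of the pathway were counted from lists of words. Names with words for protease inhibitors were on 16, 20, 19 and 16 transcripts in the seed stages and on 7, 23 and 7 in leaf, root and stem. The words also took in inter-alpha-trypsin inhibitor heavy chain (18 transcripts) and non-inhibitory serpin-10 (2). Whether each name inhibits proteases of the member classes was not checked. Of 6 inhibitor names tested, 0 were higher in seeds without overlap and 1, cysteine ase inhibitor, was lower (exact permutation p = 0.0286, adjusted p = 0.298), beside 5.25% and 6.62% of all 2552 names. The Bowman-Birk type trypsin inhibitor was on 6, 4, 5 and 4 transcripts in seeds, on 7 in root, on 0 in leaf and on 1 in stem, so root lay with the seeds.

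Names with words for reserve proteins were on 19, 16, 15 and 10 transcripts from BBCH 05 to BBCH 09 and on 4, 8 and 3 in leaf, root and stem. Their shares were 5.24, 4.01, 3.92 and 2.44 per 10000 in seeds and 1.41, 2.06 and 1.03 in organs, every seed stage above every organ. The words also took in basic 7S globulin (12 transcripts), basic 7S globulin 2 (7) and a leguminosin secreted peptide (1, in root). Whether each name is a reserve of the endosperm was not checked, and shares without these names were not computed. The name 11S globulin, a storage protein of the endosperm, was on 6, 3, 1 and 0 transcripts from BBCH 05 to BBCH 09 and on 0 in each organ. The name "11S globulin seed storage 2" was on 1, 2, 1 and 2 in seeds and on 2, 1 and 1 in leaf, root and stem, with mean shares of 0.382 and 0.435 per 10000. None of the 5 reserve names tested passed as higher or lower without overlap, and 0 had an unadjusted p under 0.05 by the exact permutation test. Proteases outside the rule, such as the Clp, FtsH and rhomboid proteases of organelles, were on 99, 102, 112 and 91 transcripts in seeds and on 73, 87 and 76 in organs. Of 23 such names tested 1, the ATP-dependent Clp protease subunit ClpC, was higher in seeds without overlap and 2, a Do-like chloroplast protease and rhomboid, were lower, none with an adjusted p under 0.05, so that the shares called were near the 5.25% and 6.62% of all names. All annotated transcripts with the GO term proteolysis, whatever their names, made up 187, 194, 191 and 204 per 10000 in seeds and 189, 184 and 181 in leaf, root and stem.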

How the data were processed

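The tables of 7 single assemblies and the combined assembly were used. The authors clipped reads with Trimmomatic, evened out depth by k-mers, assembled with Trinity, reduced each gene to its longest isoform, merged near-identical contigs with CD-HIT-EST, translated open reading frames with Transdecoder, searched UniProtKB with blastp and annotated with Blast2GO. The deposited e-value is a score, and mean similarity is a deposited percent. Both were used unaltered, as were peptide lengths. The number of reads behind a transcript is unknown, since the tables hold no read counts. Assembly size is given here as the number of annotated transcripts, 28412 (leaf) to 40902 (BBCH 09). In the paper, reads left after cleaning were fewest for leaf and most for root. Its RNA quality limit was set lower than recommended, since good RNA was hard to extract from germinated seeds. Seeds grew in petri dishes and were kept in a stabilizing reagent, and organs came from greenhouse plants and were frozen. This handling cannot be told apart from the difference between seeds and organs.

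Transcripts were counted by the words of the rule, in any case, and divided by annotated transcripts. Stages and organs are conditions and not replicates, so that p-values measure only the spread among assemblies. Each name with at least 7 transcripts was tested by an exact permutation of the 7 assemblies (35 splits, two-sided, difference of mean shares) with Benjamini-Hochberg adjustment over 2552 names. The procedure was tested on simulated data. A name was called without overlap where all seed shares lay on one side of all organ shares, and 2-fold limits had 0.5 added to both counts. Members, lists and tests were chosen with earlier results of these data known. Names given in the text were the expected proteases, names with at least 10 transcripts, those called without overlap or past 2-fold, proteins in all seed stages or all organs only, and the longest and most frequent protein of each class; cysteine protease 1, single proteins and the shortened names were chosen after their values were seen. All value columns were assigned (0 were left over). No sequences were used here. Python 3.11.15, NumPy 2.4.6, pandas 2.3.3, SciPy 1.17.1 and matplotlib 3.10.9 were used.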

Additional observations from a re-analysis of the deposited data

Results flagged for a closer look

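Over the 4 seed stages, 13 shares (the classes and the member names with at least 10 transcripts) were searched for a stage far from the others. The share of all proteases at BBCH 05, 14.6 per 10000 annotated transcripts, was the 1 value that stood apart, with a gap to the next stage of 0.873 of the whole range, above Dixon's 95% limit for 4 values. A rate of 1 in 20 would give 0.65 cases for 13 shares. The 13 shares are not independent, since names are parts of classes and classes are parts of all proteases. Whether 1 case is more than chance gives was therefore not tested, and nothing further is read from it. The stages are conditions and not replicates.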

How the results depend on the processing

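Of 188 values under alternatives, 32 moved, and 156 stayed within the SD among assemblies of a kind (differences of shares) or within 1.5 times (counts). Of the 156, 28 belong to classes with no member and are fixed at 0. No difference of shares was called in the first place, and 7 of 104 took the other sign: serine carboxypeptidases -0.311 and aminopeptidases -0.0774 with distinct accessions, papain-like proteases with peptides of at least 200 amino acids and -0.0625 without BBCH 09, aminopeptidases -0.251 without BBCH 07, and serine carboxypeptidases -0.377 without BBCH 08 and -0.0452 without stem. With peptides of at least 200 amino acids the difference between seeds and organs per 10000 was 5.05 for all proteases, -0.490 for papain-like proteases and 3.20 for serine carboxypeptidases. Of 5 member names tested at that length, 2 were higher in seeds without overlap, carboxypeptidase and serine carboxypeptidase-like 51. The share of all names called at that length was not computed, so nothing particular to proteases is read from this. With 1 transcript per Trinity gene, 0 names were 2-fold lower at BBCH 09 than at BBCH 05 and 0 were 2-fold higher in root than in leaf. With distinct accessions 0 names were higher in seeds without overlap, 0 were 2-fold higher at BBCH 09 and 0 were 2-fold higher in root. With at least 14 transcripts 1 name was 2-fold higher at BBCH 09 and 0 were lower, and 0 were higher and 0 lower in root; with a count of 1 added 1 was higher at BBCH 09. By description in place of accession, 0 were in all seed stages and no organ, 0 in all organs and no seed stage, and 8 in all 7 assemblies. The following were added after seeing the data. With the shortened names the difference was -0.542 for aspartic proteinases and -0.231 for vacuolar-processing enzymes, with 2 names higher and 2 lower without overlap. By the GO term proteolysis it was 9.37.

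Leaving out each assembly in turn, the difference ran from 1.61 to 3.58 for all proteases, from 0.677 to 1.79 for subtilisin-like proteases, from -0.0625 to 0.718 for papain-like proteases, from -0.377 to 0.901 for serine carboxypeptidases and from -0.251 to 0.425 for aminopeptidases. Names higher in seeds without overlap ran from 1 to 3 and lower from 0 to 1, proteins in all seed stages and no organ from 1 to 4, in all organs and no seed stage from 1 to 2, and in all 7 assemblies from 13 to 16. Without BBCH 05 the higher names, of 12 tested, were oryzain beta chain, serine carboxypeptidase-like 19 and subtilisin-like protease. Non-overlap, and presence in all of one kind, are easier to meet with 1 assembly fewer, for any name or protein. The shares over all names and proteins were not computed for these settings, so nothing particular to proteases is read from the counts. The causes of these moves were not tested. No paired analysis was possible because the series holds 1 sample per condition and its labels give no replicate numbers. Counts of 1 to 5 transcripts per name, and the unknown number of reads behind each transcript, limit every comparison of single names.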
